A study of Rattus norvegicus with 6 samples.

Results

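The genes described here are the interferon, JAK-STAT and SOCS genes of the rat renal inner medulla: Janus kinases and Tyk2, STAT and IRF transcription factors, SOCS inhibitors, an RNA sensor, and the Ifit, Ifi, Oas, Mx, Gbp and Isg15 effectors. They were chosen by gene symbol alone, and 42 genes with 54 probe sets met the rule, of 14217 genes and 31042 probe sets tested in all. Where a gene had several probe sets, the brightest by mean log2 value stood for it, and what the others gave is stated beside it. Further Jak, Stat, Irf and Socs genes, and those on probe sets with several symbols, were not analysed here. The study compared the IMCD fraction, 3 preparations enriched in inner medullary collecting duct cells, with the nonIMCD fraction, 3 preparations of the cells left in the supernatant of that enrichment. Every preparation came from male Sprague-Dawley rats that had received 1 mg of the loop diuretic furosemide 30 min before death, and from tissue digested with collagenase B and hyaluronidase for 75 min at 37 °C, so no array shows undigested tissue or an animal without the drug. Rats were 6 weeks old for IMCD replicate 1, and 10 weeks old for the other 5 arrays, per the labels. The series used 7 rats over 3 isolations, each giving a pair of fractions, and the labels do not say which arrays form a pair, so the tests are unpaired. No nonIMCD array is labelled 6 weeks, so the labelled ages conflict with a pair for IMCD replicate 1, which was not resolved here. With the rats behind each array not given in the sources used here, p-values measure the spread between these preparations.

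Interferons and many interleukins bind receptors that carry Janus kinases (JAKs), which phosphorylate STAT proteins. Phosphorylated STATs enter the nucleus, and Stat2 does so bound to the DNA-binding factor Irf9, to switch on interferon-stimulated genes through a DNA element called the ISRE, while other STAT dimers bind the GAS element. SOCS proteins are induced by the same signals and shut the receptors down, and interferon regulatory factors (IRFs) act both upstream, inducing interferons, and downstream. Epithelial cells and leukocytes both make interferon-stimulated proteins, whereas some IRFs and STATs are characteristic of leukocyte lineages.

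The promoter windows of the members are described first. They were searched for letters that match the elements through which this pathway is known to act. RefSeq windows (GRCr8 build), reaching from 250 bases before to 50 bases after the annotated start, were matched for 30 of the 42 members. The ISRE core (GAAA, any 2 bases, GAAA), read on either strand, was present in 12 of these 30 windows (40.0%), against 3.92% of all 33469 windows of the same length. The GAS core TTCNNNGAA was present in 8 of 30 (26.7%), against 8.87% of all windows. Members with the ISRE core lay on both sides of the comparison described below: it was in 3 of the 6 matched windows of higher genes, 2 of the 6 of lower genes and 7 of the 18 of genes that did not pass the test.

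The windows printed are those of the 6 called members that hold either core, to show that both higher and lower genes carry such letters. The other 6 matched called members (Oasl, Stat2, Socs3, Ifi30, Irf5 and Stat4) hold neither core in these windows. Bases outside the windows, or around any other start of a gene, were not read, so these genes may hold a core elsewhere. Capitals mark ISRE and GAS matches, and each sequence runs 5′ to 3′ on the strand of its gene. The higher genes are Ifih1 (chr3:67683919-67684218, minus strand), Socs1 (chr10:5389324-5389623, plus strand) and Ifi44l (chr2:243328473-243328772, plus strand). The lower genes are Gbp2 (chr2:234005477-234005776, plus strand), Gbp4 (chr2:233978236-233978535, plus strand) and Irf8 (chr19:65699034-65699333, plus strand).
Ifih1: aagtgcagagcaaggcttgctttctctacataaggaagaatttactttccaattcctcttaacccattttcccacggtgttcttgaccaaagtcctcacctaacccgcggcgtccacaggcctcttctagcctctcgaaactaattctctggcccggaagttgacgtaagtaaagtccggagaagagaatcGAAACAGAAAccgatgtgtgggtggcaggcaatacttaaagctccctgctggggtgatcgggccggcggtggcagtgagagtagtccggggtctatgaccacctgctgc
Socs1: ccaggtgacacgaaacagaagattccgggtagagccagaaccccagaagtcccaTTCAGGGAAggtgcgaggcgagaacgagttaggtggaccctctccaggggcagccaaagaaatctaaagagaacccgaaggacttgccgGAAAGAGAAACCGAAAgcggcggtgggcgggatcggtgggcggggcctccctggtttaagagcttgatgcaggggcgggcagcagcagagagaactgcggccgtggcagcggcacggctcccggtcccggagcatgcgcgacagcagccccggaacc
Ifi44l: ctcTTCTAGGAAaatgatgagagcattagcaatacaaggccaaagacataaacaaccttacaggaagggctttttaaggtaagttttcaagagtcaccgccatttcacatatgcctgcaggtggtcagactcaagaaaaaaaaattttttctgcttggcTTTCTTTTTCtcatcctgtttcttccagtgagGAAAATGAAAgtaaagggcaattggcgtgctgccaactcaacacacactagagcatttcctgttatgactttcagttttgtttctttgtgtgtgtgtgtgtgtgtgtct
Gbp2: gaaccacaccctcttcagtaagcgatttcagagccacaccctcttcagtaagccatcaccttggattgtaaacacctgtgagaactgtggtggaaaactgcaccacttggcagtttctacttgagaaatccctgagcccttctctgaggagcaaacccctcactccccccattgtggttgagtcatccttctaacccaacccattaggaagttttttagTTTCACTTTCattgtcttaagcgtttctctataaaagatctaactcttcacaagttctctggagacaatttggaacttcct
Gbp4: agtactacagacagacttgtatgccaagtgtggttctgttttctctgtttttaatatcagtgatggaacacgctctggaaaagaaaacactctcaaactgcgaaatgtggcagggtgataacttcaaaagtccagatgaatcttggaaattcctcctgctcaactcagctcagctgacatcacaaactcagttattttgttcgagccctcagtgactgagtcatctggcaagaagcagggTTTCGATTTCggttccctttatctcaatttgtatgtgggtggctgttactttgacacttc
Irf8: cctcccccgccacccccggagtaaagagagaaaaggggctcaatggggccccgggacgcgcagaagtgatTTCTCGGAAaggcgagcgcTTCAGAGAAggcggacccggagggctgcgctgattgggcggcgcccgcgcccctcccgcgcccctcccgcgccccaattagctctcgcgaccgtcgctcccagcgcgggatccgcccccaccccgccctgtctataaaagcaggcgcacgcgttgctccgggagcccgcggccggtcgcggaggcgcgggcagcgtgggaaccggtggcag
The ISRE match of Ifih1 begins 59 bases before the start, and that of Gbp2 begins 31 bases before it. Socs1 has 2 overlapping ISRE matches, beginning 107 and 101 bases before the start, and a GAS match beginning 196 bases before it. Ifi44l has ISRE matches at 91 and 59 bases and a GAS match at 247 bases before the start. The single ISRE match of Gbp4 begins 10 bases before the start. Irf8 has GAS matches at 180 and 161 bases before the start, and no ISRE core was found in its window. No ISRE match in these windows overlaps a GAS match. A match is a run of letters and was not tested as a binding site.

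Some members of the pathway were higher and others lower in the collecting duct fraction, and both directions occurred among the factors, the inhibitors and the effectors. The RNA sensor Ifih1, the antiviral effectors Oasl, Ifit2, Isg15 and Ifi44l, the factor Stat2 and the inhibitors Socs1 and Socs3 were higher in IMCD. Of these, the 7 that were not dim in either fraction (a mean under 100; Socs1 was dim in nonIMCD) had means 1.62 to 4.10 times as high in IMCD. The factors Irf5, Irf8, Stat4 and Irf2, the guanylate-binding proteins Gbp2 and Gbp4, Ifi30, Ifi27l2b and Socs2 were lower. The 6 of them that were not dim had means 1.99 to 9.02 times higher in nonIMCD, and Irf5, Stat4 and Socs2 were dim in IMCD. In limma's test across all probe sets (Benjamini-Hochberg adjusted p under 0.05), 8 of 42 members were higher and 9 were lower, and 25 did not pass. That is 19.0% higher and 21.4% lower, against 10.0% higher and 15.7% lower among all 14217 genes. The IMCD arrays lay wholly above the nonIMCD arrays for 18 members and wholly below for 14, and among all genes these shares were 20.0% and 28.7%. Differences are given in log2(intensity + 16), IMCD minus nonIMCD, and their median was 0.12 over the members and -0.09 over all genes. Values by array are the deposited intensities in the order of replicates 1, 2 and 3. With fractions of mixed cells, fewer cells of a type and less RNA per cell cannot be told apart.

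**Figure D1:**
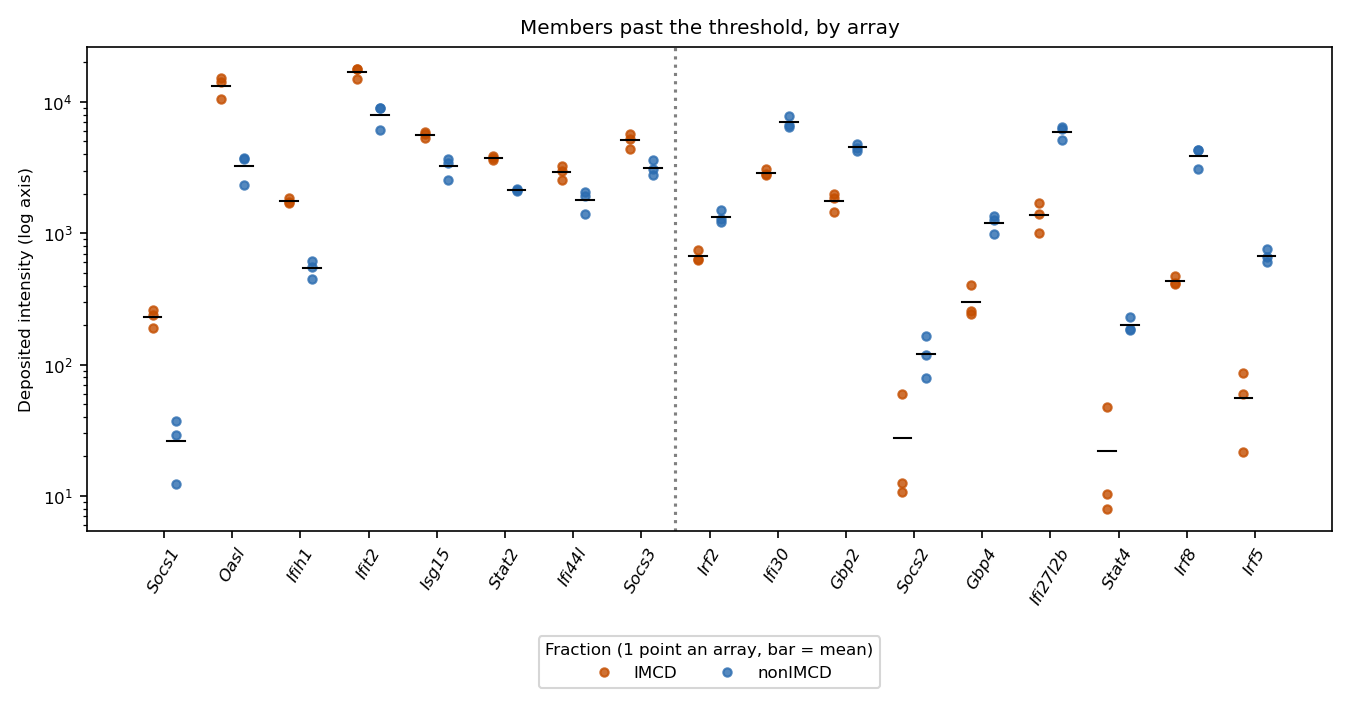
Deposited intensity (log axis) of the 17 members past the threshold, each point 1 array and each bar the mean of 3, IMCD left of nonIMCD for each gene. The 8 genes left of the dotted line had all IMCD arrays above all nonIMCD arrays, and the 9 genes right of it had all IMCD arrays below.

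The split between directions rested partly on scaling. With each array centred on its median, 17 members were higher and 8 lower (68% of calls higher, against 47.1% as deposited), and over all genes 2868 were higher and 1456 lower (66.3%, against 38.9%). That centring moved the median difference of all probe sets up by 0.29 and quantile normalization moved it up by 0.15, with 6 members higher and 8 lower after quantile normalization. There 42.9% of member calls were higher, against 47.8% of all calls, so the members' larger share of higher calls as deposited did not hold. The calls for Oasl, Ifih1 and Stat2 (higher) and for Irf5, Irf8, Stat4, Gbp2, Gbp4, Ifi30 and Ifi27l2b (lower) held in all 14 alternatives, 10 of 17 called members.

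**Figure D2:**
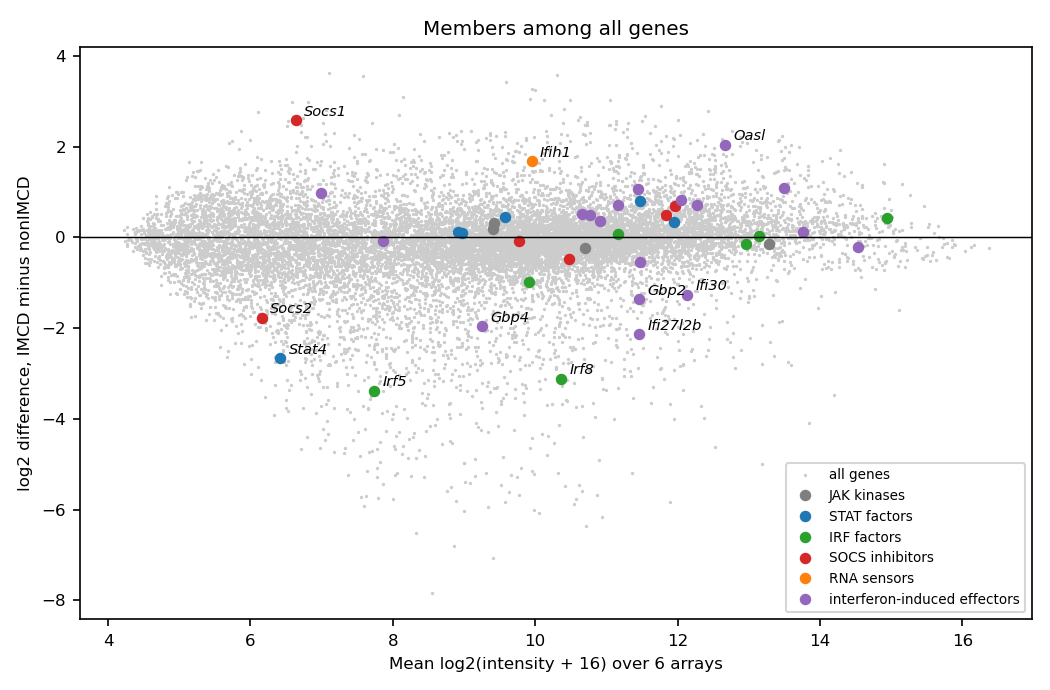
Difference in log2(intensity + 16), IMCD minus nonIMCD, against the mean log2 value over 6 arrays, for all 14217 genes (grey) and for the members coloured by role. Irf5 (-3.38, dim in IMCD) and Irf8 (-3.11) lie near the bottom and Socs1 (2.58, dim in nonIMCD) and Oasl (2.05) near the top, and with a pseudocount of 64 Irf5 had -2.66 and Socs1 1.71.

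Markers of cell types also differed between the fractions. Of 21 leukocyte markers 19 were lower in IMCD, 1 (Cd79b) was higher and 1 (Cd3e) did not pass, and their summed intensity ranged over 10518 to 12697 in IMCD and 233265 to 250150 in nonIMCD. No marker was listed at 0. In IMCD 8 of these 21 had means under 100, and in nonIMCD 0. Of 13 principal cell markers 12 were higher and 1 (the water channel gene Aqp2) did not pass, with sums of 239113 to 257066 in IMCD and 113790 to 148439 in nonIMCD. All 13 endothelial markers were lower, with sums of 16640 to 20594 in IMCD and 71687 to 76462 in nonIMCD. The thin limb (3 of 3), interstitial and pericyte (7 of 12) and erythroid (3 of 3) markers were lower as well. The log2 ratio of 3' to 5' signal of Actb, Gapdh and hexokinase, a measure of RNA integrity, averaged 0.69 ± 0.03 in IMCD and 1.35 ± 0.14 in nonIMCD (SD, n = 3 each). The part of these shifts in the results that follow was not tested.

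None of the 4 Janus kinases passed limma's test, and 0 of 4 had an unadjusted p under 0.05. Among all 14217 genes 2203 were higher and 3389 lower at that unadjusted p, and 4 genes are too few to compare with these. Jak1, the kinase shared by the interferon and gp130 receptors, had intensities of 9537, 9468 and 9285 in IMCD and 10328, 10403 and 10611 in nonIMCD. Every IMCD array lay below every nonIMCD array, and the log2 difference was -0.15 (95% interval -0.42 to 0.12, adjusted p = 0.396). It was 0.14 with arrays centred on their median, and a dimmer Jak1 probe set gave 0.23 (adjusted p = 0.246). Jak2, used by hormone and cytokine receptors, had 0.18 (-0.15 to 0.52, adjusted p = 0.401) and Jak3, the kinase of the common gamma chain, 0.32 (-0.06 to 0.70, adjusted p = 0.199). Jak3 passed with arrays centred on their median (0.61, adjusted p = 0.032). Tyk2 had -0.23 (-0.62 to 0.16, adjusted p = 0.357), and 0.06 with arrays centred on their median.

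Of 6 STAT genes 1 was higher, 1 lower and 4 did not pass. These shares, 16.7% and 16.7%, stand against 10.0% and 15.7% of all genes and rest on 1 gene each. Stat2, the partner of Irf9 in the interferon response, had 3629, 3723 and 3898 in IMCD and 2141, 2170 and 2113 in nonIMCD. The fractions did not overlap, and the arrays of each fraction were close together. Its log2 difference was 0.80 ± 0.11 (SE, limma adjusted p = 0.00554), and a dimmer probe set gave 0.46 (adjusted p = 0.124).

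Stat4, which carries interleukin-12 signals in T and natural killer cells, had 47.7, 7.93 and 10.3 in IMCD and 183, 188 and 230.2 in nonIMCD. The IMCD values lay under the lower quartile of their arrays, which was 69.9 to 75.0. The difference was -2.65 ± 0.40 (limma adjusted p = 0.00713), and it ranged from -3.56 with a pseudocount of 1 to -1.65 with a pseudocount of 64.

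Stat3, the main factor of gp130 signals, had 4543, 4734 and 4042 in IMCD and 3660, 3748 and 3107 in nonIMCD. All IMCD arrays lay above all nonIMCD arrays, and the difference of 0.34 ± 0.14 did not pass (limma adjusted p = 0.148). A dimmer Stat3 probe set, at 0.46, did pass (adjusted p = 0.0494), as did the main one with arrays centred on their median (0.63, adjusted p = 0.0272). Stat5a, a factor of prolactin and cytokine signals, had 0.45 (adjusted p = 0.127), with all IMCD arrays above, and passed with arrays centred on their median (0.74, adjusted p = 0.0289). Its neighbour Stat5b had 0.08 (adjusted p = 0.789), and Stat6, the factor of interleukin-4 signals, had 0.12 (adjusted p = 0.704). Stat5b, Stat5a and Stat3 follow each other in the annotation with 0 coding genes between them.

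Of 6 SOCS inhibitors 2 were higher, 1 was lower and 3 did not pass, 33.3% and 16.7% against 10.0% and 15.7% of all genes. Socs1, which blocks JAK catalytic activity, had 239, 259 and 190.2 in IMCD and 29.3, 37.0 and 12.2 in nonIMCD. The fractions were far apart, and the nonIMCD values lay under the lower quartile of their arrays (87.9 to 93.9). The difference was 2.58 ± 0.27 (SE, limma adjusted p = 0.00219), and 3.20 and 1.71 with pseudocounts of 1 and 64. A dimmer Socs1 probe set disagreed, at -1.05 ± 0.78 (adjusted p = 0.397), and the mean of both gave 0.77 (adjusted p = 0.133).

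Socs3, the feedback inhibitor of the gp130 receptor, had 5188, 5750 and 4385 in IMCD and 3094, 3598 and 2764 in nonIMCD. The groups did not overlap, and the difference was 0.69 ± 0.17 (limma adjusted p = 0.0361). Socs3 did not pass with IMCD replicate 1 (0.68, adjusted p = 0.107) or 2 (0.60, adjusted p = 0.105) left out, nor with nonIMCD replicate 1 (0.68, adjusted p = 0.101) or 3 (0.60, adjusted p = 0.0896) left out, nor after quantile normalization (0.62, adjusted p = 0.0505).

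Socs2, an inhibitor of growth hormone signals, had 10.7, 12.6 and 59.9 in IMCD and 79.0, 164 and 118.8 in nonIMCD. The IMCD values were dim and did not reach those of nonIMCD, and the difference of -1.77 ± 0.47 (limma adjusted p = 0.0466) held its call in only 5 of 14 alternatives. It was lost without any 1 array other than IMCD replicate 3, with values of -1.50 to -2.01 (adjusted p = 0.0721 to 0.13). Socs5 had 4341, 4295 and 4280 in IMCD and 3402, 2589 and 3240 in nonIMCD, with no overlap and a difference of 0.49 ± 0.15 (adjusted p = 0.0652). A dimmer Socs5 probe set passed at 0.57 (adjusted p = 0.0366), and Socs5 passed in 5 of 14 alternatives. Socs7 had -0.47 (adjusted p = 0.0554), with other probe sets at -0.90 (adjusted p = 0.00683) and 0.26 (adjusted p = 0.242), and passed in 4 of 14 alternatives. Socs6 had -0.07 (adjusted p = 0.798), and 0.22 with arrays centred on their median.

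**Figure D3:**
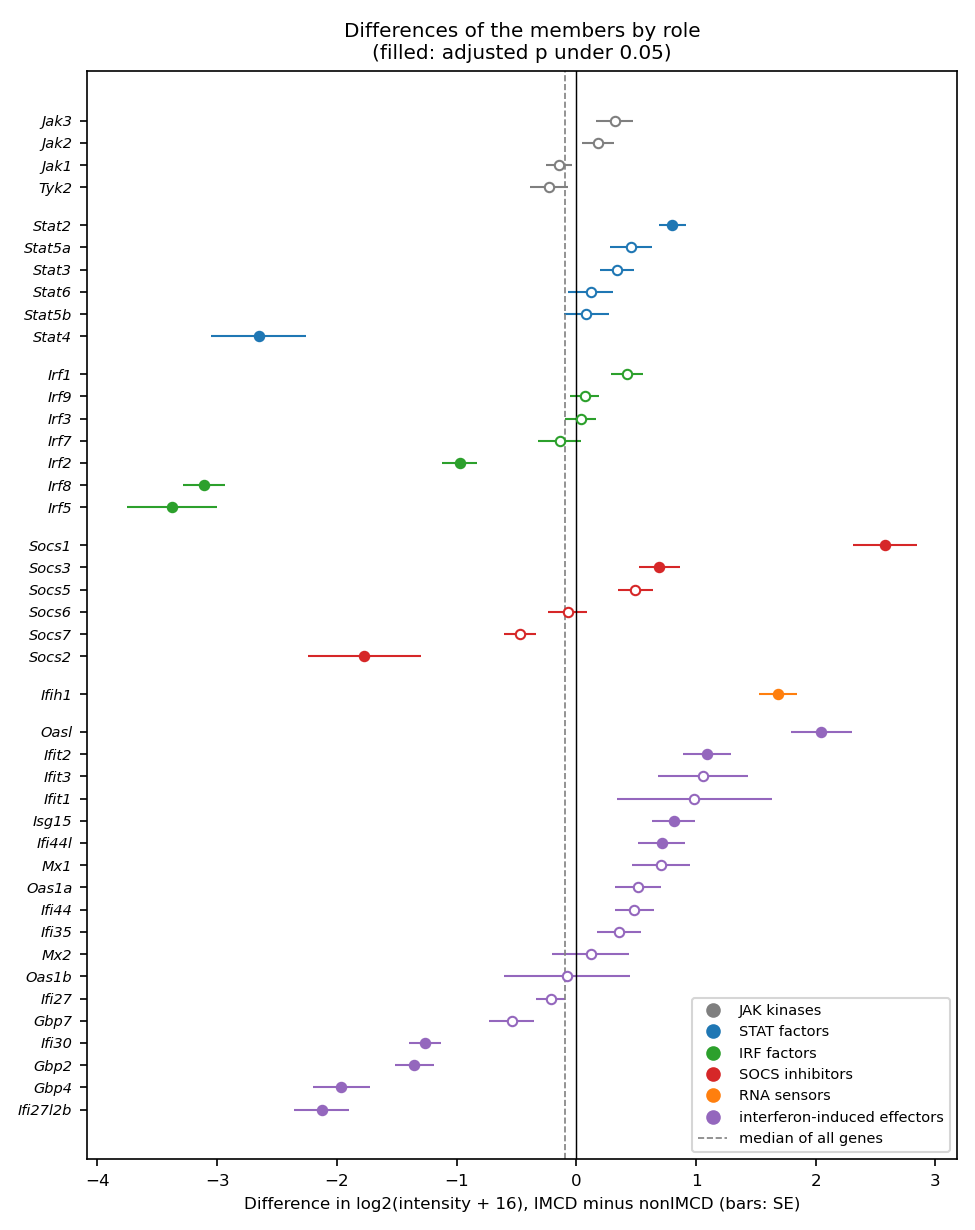
Log2 difference, IMCD minus nonIMCD, with SE for all 42 members by role, filled where the adjusted p was under 0.05, with the median of all genes (-0.09) as a dashed line. The JAK kinases lie between -0.23 and 0.32, whereas the IRF factors reach -3.38 and the effectors span -2.13 to 2.05.

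Of 7 interferon regulatory factors 3 were lower in IMCD, 0 were higher in limma's test and 4 did not pass. The lower share was 42.9%, against 15.7% of all genes. Irf1 was higher at an unadjusted p under 0.05. Irf8, a lineage factor of macrophages and dendritic cells, had 412, 472 and 415 in IMCD and 4271, 4335 and 3096 in nonIMCD. Its mean was 9.02 times higher in nonIMCD, with a difference of -3.11 ± 0.18 (SE, adjusted p = 0.000399). Irf5, which acts downstream of toll-like receptors in macrophages, had 85.7, 60.1 and 21.4 in IMCD and 762, 599.9 and 663 in nonIMCD. The fractions were far apart for both genes. For Irf5 the difference was -3.38 ± 0.38 (limma adjusted p = 0.0027), and its IMCD mean of 55.7 was dim. Leukocyte (19 of 21), endothelial (13 of 13), thin limb (3 of 3), erythroid (3 of 3) and interstitial and pericyte (7 of 12) markers were lower in IMCD too. The part of any of these cells in the 2 differences was not tested.

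Irf2, an antagonist of Irf1 at shared sites, had 628, 747 and 640.1 in IMCD and 1513, 1274 and 1225 in nonIMCD. All IMCD arrays were lower, and the difference was -0.98 ± 0.15 (limma adjusted p = 0.00745). The other Irf2 probe sets had means under 100 in both fractions, and the average over all of them gave -0.37 (adjusted p = 0.0598). Irf1, an activator induced by interferon, had 36362, 39131 and 34304 in IMCD and 24609, 29662 and 27802 in nonIMCD. Its arrays did not overlap, and the difference of 0.42 ± 0.13 did not pass (adjusted p = 0.0779). It passed with arrays centred on their median (0.71, adjusted p = 0.0131), with dim probe sets left out (0.42, adjusted p = 0.0408) and with an intensity trend (0.42, adjusted p = 0.0131).

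Irf3, present in most cells and activated by viral nucleic acid, had 0.04 (95% interval -0.28 to 0.36, adjusted p = 0.871), and -0.14 after quantile normalization. Irf7, the amplifier of interferon production, had -0.14 (-0.58 to 0.30, adjusted p = 0.64), and 0.15 with arrays centred on their median. Irf9 had 0.07 (-0.23 to 0.37, adjusted p = 0.737), with a dimmer probe set at 0.41 (adjusted p = 0.0564).

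The RNA sensor and 4 of 18 effectors were higher in IMCD, 4 effectors were lower and 10 did not pass. For the effectors this was 22.2% in each direction, against 10.0% higher and 15.7% lower among all genes. Ifih1, the cytoplasmic sensor of long double-stranded RNA, had 1860, 1724 and 1702 in IMCD and 558, 447 and 617 in nonIMCD. The fractions did not overlap, and the mean was 3.26 times as high in IMCD (difference 1.69 ± 0.16, SE, limma adjusted p = 0.00157). Oasl, a member of the oligoadenylate synthetase family, had 15352, 10492 and 14092 in IMCD and 3688, 2316 and 3733 in nonIMCD. It differed by 2.05 ± 0.26 (adjusted p = 0.00387), the largest positive difference among the effectors.

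Ifit2, whose protein binds RNA and restrains translation, had 17821, 15067 and 17806 in IMCD and 9027, 6067 and 8945 in nonIMCD. The fractions did not overlap, and the difference was 1.09 ± 0.20 (limma adjusted p = 0.0145). A dimmer Ifit2 probe set gave 1.52 ± 0.22 (adjusted p = 0.00692). The brighter probe set did not pass with IMCD replicate 1 (1.05, adjusted p = 0.0548) or 3 (1.05, adjusted p = 0.0506) left out.

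Isg15, a ubiquitin-like modifier, had 5661, 5289 and 5910 in IMCD and 3710, 2538 and 3440 in nonIMCD. Its difference was 0.81 ± 0.18 (limma adjusted p = 0.0262). Without IMCD replicate 1, 2 or 3 or nonIMCD replicate 3 it was 0.81, 0.86, 0.78 and 0.87 (adjusted p = 0.0815, 0.0643, 0.0805 and 0.0532). Ifi44l was at the edge of the threshold (0.71 ± 0.19, adjusted p = 0.05), and it did not pass with any 1 array left out (0.55 to 0.82, adjusted p = 0.0713 to 0.135), with a pseudocount of 1 (adjusted p = 0.0601) or after quantile normalization (0.73, adjusted p = 0.0542). Of the 4 higher effectors 1 was still called without IMCD replicate 1 and 1 without IMCD replicate 3.

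A further set of effectors had all IMCD arrays above all nonIMCD arrays without passing. Ifit3 had 4795, 2689 and 5006 in IMCD and 2449, 1207 and 2389 in nonIMCD, with a difference of 1.06 ± 0.38 (limma adjusted p = 0.105). The differences of the others were smaller: for the antiviral GTPase Mx1 0.71 ± 0.24 (adjusted p = 0.0911), for Oas1a, which makes the activator of RNase L, 0.51 ± 0.19 (adjusted p = 0.12), and for Ifi44 0.49 ± 0.16 (adjusted p = 0.0877). All 4 passed with arrays centred on their median and with an intensity trend. In Ifi35 (0.35, adjusted p = 0.23), Mx2 (0.12, adjusted p = 0.828, and 0.31, adjusted p = 0.401, on a dimmer probe set), Oas1b (-0.08, adjusted p = 0.934) and Ifit1 (0.99, adjusted p = 0.339) the fractions overlapped, and Ifit1 was dim in nonIMCD (mean 98.3).

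The arrays numbered 2 were the lowest of their fraction for many effectors, a pattern noticed after the values were seen. In 11 of 18 effectors (61.1%) replicate 2 had the lowest value in IMCD and also in nonIMCD, against 13.2% of all genes. These were Ifit2, Ifit3, Isg15, Ifi44, Ifi44l, Mx1, Oas1a, Oasl, Gbp2, Gbp4 and Gbp7. With the replicate number as a block, Ifit3 passed (1.06, adjusted p = 0.0216).

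The largest negative difference among the effectors was that of Ifi27l2b. It had 1711, 1001 and 1391 in IMCD and 6438, 6206 and 5104 in nonIMCD. It differed by -2.13 ± 0.23 (SE, limma adjusted p = 0.00239), whereas its neighbour Ifi27 (0 coding genes between) had 23854, 22146 and 20299 in IMCD and 25682, 25396 and 25584 in nonIMCD, a difference of -0.21 (adjusted p = 0.276), and 0.08 with arrays centred on their median. Ifi30, a lysosomal thiol reductase used in antigen processing, had 2832, 2801 and 3061 in IMCD and 6399, 6724 and 7874 in nonIMCD. Its difference was -1.26 ± 0.14 (adjusted p = 0.00235).

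The guanylate-binding proteins, GTPases that act against intracellular pathogens, lie side by side in the annotation. Gbp4 had 258, 243 and 403 in IMCD and 1352, 990.3 and 1264 in nonIMCD (-1.96 ± 0.24, SE, limma adjusted p = 0.00352). Gbp2 had 1857, 1447 and 1991 in IMCD and 4437, 4262 and 4799 in nonIMCD (-1.35 ± 0.16, adjusted p = 0.00343). Both were lower on every IMCD array. Gbp7 had 2266, 1926 and 2912 in IMCD and 3690, 3145 and 3373 in nonIMCD, and its difference of -0.54 ± 0.19 did not pass (adjusted p = 0.0978), except with an intensity trend (adjusted p = 0.0154). The Ifit, Mx, Oas, Ifi44 and Ifi27 genes also sit beside relatives, and whether probe sets of such families share signal was not tested.

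**Figure D4:**
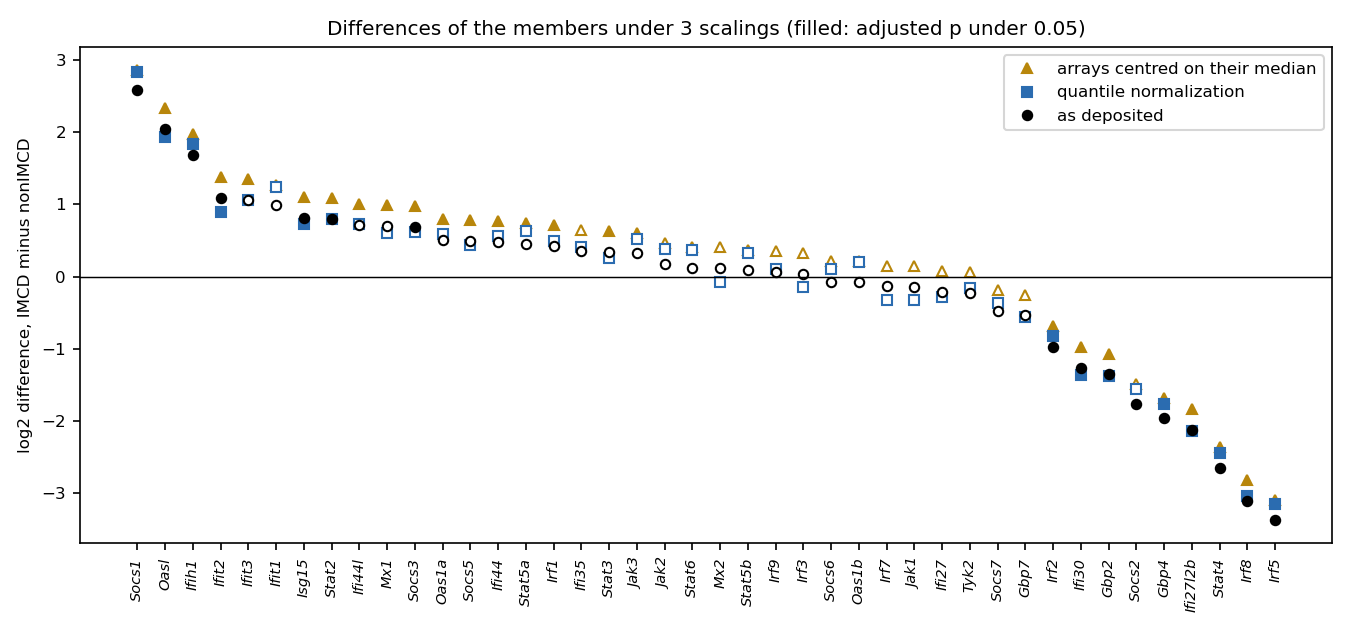
Log2 difference, IMCD minus nonIMCD, of each member as deposited, after quantile normalization and with arrays centred on their median, filled where the adjusted p was under 0.05. The 8 members called higher and the 9 called lower as deposited keep their sign under the other scalings, while Jak1, Tyk2, Irf7, Ifi27, Socs6 and Oas1b lie above 0 with arrays centred on their median.

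The rest of the pathway was read from lists of ligands, receptors, regulators and targets. Of 26 cytokine ligands 4 were higher, 6 lower and 16 did not pass, 15.4% and 23.1% against 10.0% and 15.7% of all genes (median -0.05). Means were under 100 for 13 of the 26 in IMCD and for 10 in nonIMCD. Il6, a gp130 cytokine, had 2585, 1775 and 6307 in IMCD and 379, 213 and 350.5 in nonIMCD (3.26 ± 0.50, SE, limma adjusted p = 0.00793). Lif, of the same family, had 359, 235.4 and 346 in IMCD and 104, 114 and 111 in nonIMCD (1.37 ± 0.19, adjusted p = 0.00538). Both were higher on every IMCD array. Il23a (2.06, adjusted p = 0.00147) and the granulocyte factor Csf3 (1.42, adjusted p = 0.00856) were higher too. Cntf (-3.60, adjusted p = 0.000518), Il10 (-3.53, adjusted p = 0.000204) and Csf2 (-3.14, adjusted p = 0.00162) were lower. Il10 (4.33 to 7.18) and Csf2 (12.1 to 19.3) were dim in IMCD, and the difference was -5.14 and -2.10 for Il10 and -4.02 and -2.03 for Csf2 with pseudocounts of 1 and 64.

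Of 26 cytokine receptors 4 were higher, 12 lower and 10 did not pass, 15.4% and 46.2% against 10.0% and 15.7% of all genes (median -0.60). The lower count was 7 with arrays centred on their median and 7 to 10 with 1 array left out, and the higher count was 1 to 3 with 1 array left out. Ifnlr1, the specific chain of the interferon lambda receptor of epithelia, had 5406, 5134 and 5495 in IMCD and 1340, 1079 and 1048 in nonIMCD. All arrays were apart, with a difference of 2.20 ± 0.14 (SE, limma adjusted p = 0.000538). Il10rb, its shared partner chain, named after its values were seen, had 0.52 ± 0.12 (adjusted p = 0.0306) and did not pass with any 1 array left out (0.47 to 0.55, adjusted p = 0.065 to 0.0931) or with the replicate block (adjusted p = 0.0678).

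Ifngr1, the ligand-binding chain for interferon gamma, had 2708, 2800 and 2963 in IMCD and 11048, 10870 and 11717 in nonIMCD (-1.98 ± 0.12, SE, limma adjusted p = 0.000432). Its partner Ifngr2 differed by 0.00 (95% interval -0.36 to 0.36). Of the chains for type I interferon, Ifnar2 had 0.28 (adjusted p = 0.26) and Ifnar1 -0.59 ± 0.14 (adjusted p = 0.0315), a call lost with arrays centred on their median (-0.30, adjusted p = 0.163) and after quantile normalization (-0.44, adjusted p = 0.0882). It was also lost without any 1 array other than nonIMCD replicate 2 (-0.51 to -0.63, adjusted p = 0.0703 to 0.0975), with the replicate block (adjusted p = 0.0566) and with the mean of all probe sets (-0.32, adjusted p = 0.103).

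Il6st, the gp130 chain, had 5516, 5474 and 5324 in IMCD and 3646, 3921 and 3656 in nonIMCD (0.54 ± 0.11, SE, limma adjusted p = 0.0224). Its arrays were apart, but it did not pass with any 1 array other than nonIMCD replicate 2 left out (0.52 to 0.55, adjusted p = 0.0572 to 0.0781), nor with the replicate block (adjusted p = 0.0633), and the mean of its probe sets gave 0.15 (adjusted p = 0.539). The erythropoietin receptor Epor was higher (1.99, adjusted p = 0.0155), and without IMCD replicate 1 it had 2.01 (adjusted p = 0.051). The receptor chains Il10ra (-3.88, adjusted p = 0.000517), Il2rg (-3.55, adjusted p = 0.00284) and Il2rb (-2.67, adjusted p = 0.000748) were lower. Il2rg was dim in IMCD (53.2, 70.0 and 176.5, mean 99.9).

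**Figure D5:**
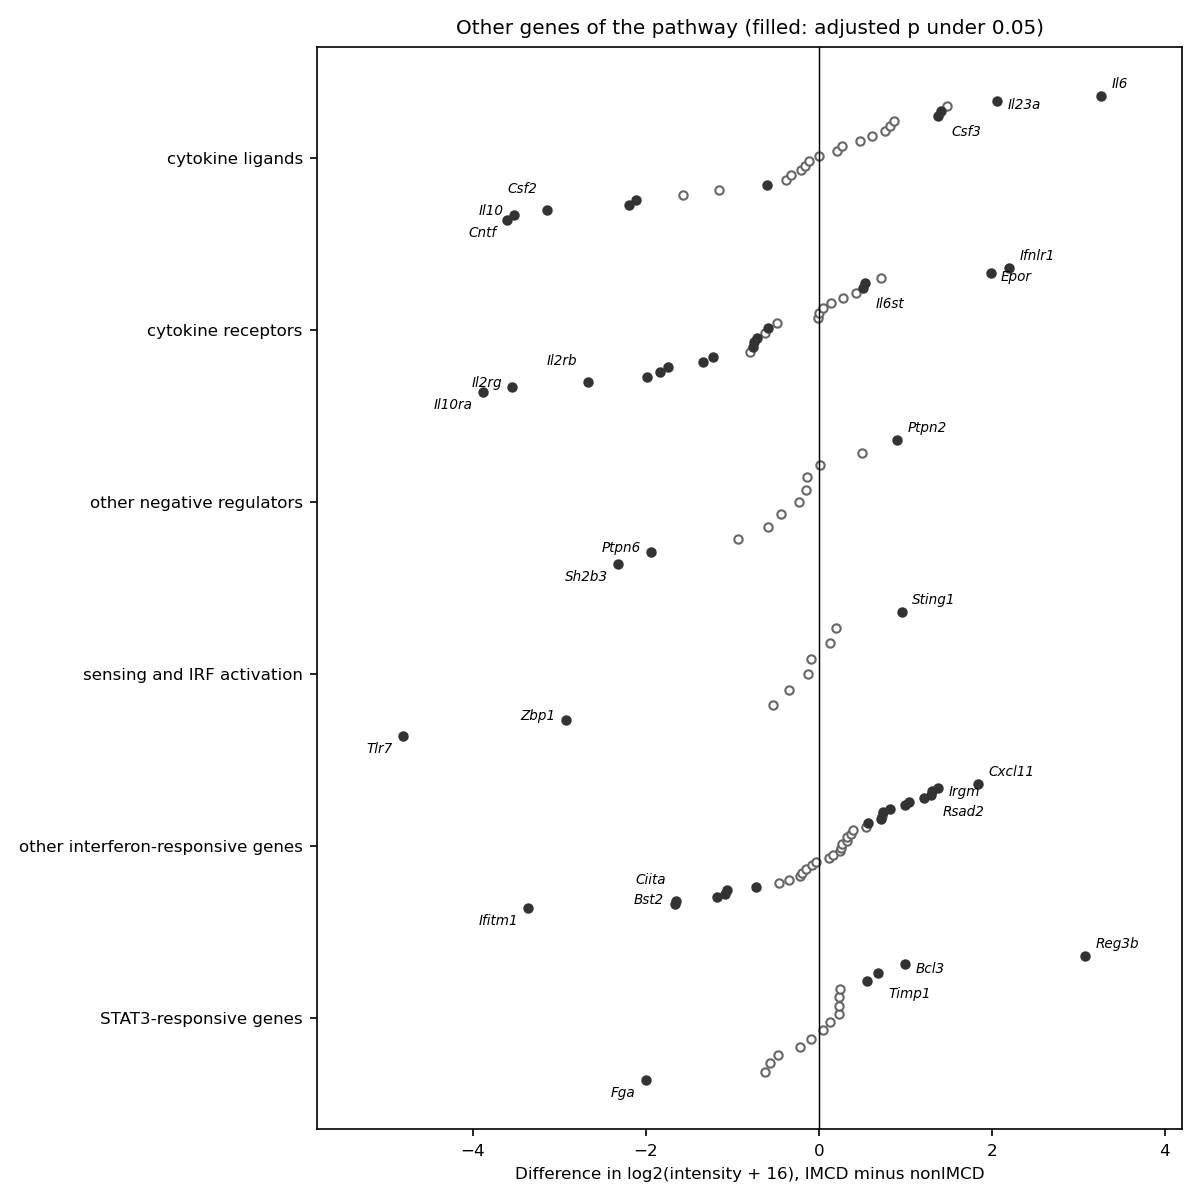
Log2 difference, IMCD minus nonIMCD, of the other pathway genes by list, 1 point a gene, filled where the adjusted p was under 0.05, with up to 3 called genes named in each direction. The receptors reach -3.88 (Il10ra) and 2.20 (Ifnlr1), and 11 of 36 other interferon-responsive genes are filled above 0 against 7 below.

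Of 36 other interferon-responsive genes 11 were higher, 7 lower and 18 did not pass, 30.6% and 19.4% against 10.0% and 15.7% of all genes (median 0.26). The chemokine Cxcl11 had 10123, 10178 and 12403 in IMCD and 3216, 2702 and 3167 in nonIMCD (1.84 ± 0.15, SE, limma adjusted p = 0.001). The immunity GTPase Irgm was higher (1.38, adjusted p = 0.00454), as was the antiviral enzyme Rsad2 (1.31 ± 0.27, adjusted p = 0.0202). Rsad2 did not pass with IMCD replicate 1 (1.26, adjusted p = 0.0693) or 3 (1.14, adjusted p = 0.0592), or nonIMCD replicate 1 (1.17, adjusted p = 0.0673) or 2 (1.25, adjusted p = 0.0681), left out. The membrane restriction factors Ifitm1 (-3.36, adjusted p = 0.000534) and Bst2 (-1.67, adjusted p = 0.00575) were lower, and so was Ciita, the activator of class II antigen presentation (-1.65, adjusted p = 0.00566). The count of higher genes was 7 without IMCD replicate 1 and 16 with arrays centred on their median.

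Of 9 genes of sensing and IRF activation 1 was higher and 2 were lower (median -0.13). These shares, 11.1% and 22.2%, were near the 10.0% and 15.7% of all genes. The DNA-sensing adaptor Sting1 had 2648, 2544 and 3309 in IMCD and 1332, 1518 and 1480 in nonIMCD (0.96 ± 0.15, SE, limma adjusted p = 0.0091). Endosomal Tlr7 (-4.81, adjusted p = 0.000755) and the nucleic acid sensor Zbp1 (-2.93, adjusted p = 0.000333) were lower. Tlr7 was dim in IMCD (6.07 to 40.5), and its difference was -5.76 and -3.61 with pseudocounts of 1 and 64. Among 11 other negative regulators 1 was higher and 2 were lower (median -0.23), shares of 9.09% and 18.2% that were also near those of all genes. Ptpn2, a phosphatase of JAKs and STATs, was higher (0.91, adjusted p = 0.00657), and the phosphatase Ptpn6 (-1.94, adjusted p = 0.00161) and the adaptor Sh2b3 (-2.32, adjusted p = 0.00147), both known from blood cells, were lower.

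Of 16 STAT3-responsive genes 4 were higher, 1 lower and 11 did not pass, 25% and 6.25% against 10.0% and 15.7% of all genes (median 0.18). Reg3b was higher (3.08, limma adjusted p = 0.00474), with 695, 827 and 918 in IMCD and 162, 43.2 and 71.4 in nonIMCD. The fractions did not overlap, and its nonIMCD mean was dim. Bcl3, a nuclear partner of NF-kappaB, was higher (1.0, adjusted p = 0.0145), but did not pass with IMCD replicate 1 (adjusted p = 0.0525) or 2 (0.92, adjusted p = 0.0508), or nonIMCD replicate 1 (0.93, adjusted p = 0.0542), left out, nor with the replicate block (adjusted p = 0.0616). Timp1, an inhibitor of matrix proteases, was higher (0.69, adjusted p = 0.0196), but did not pass with IMCD replicate 1 (0.64, adjusted p = 0.0715) or 3 (0.64, adjusted p = 0.0644), or nonIMCD replicate 1 (0.67, adjusted p = 0.0675) or 2 (0.65, adjusted p = 0.0625), left out. Fga, the fibrinogen alpha chain, was lower (-2.0, adjusted p = 0.0183), but did not pass with nonIMCD replicate 2 (-1.88, adjusted p = 0.0644) or 3 (-1.86, adjusted p = 0.0573) left out, nor with the replicate block (adjusted p = 0.0572). With 1 array left out, 1 to 3 genes of the list were higher, and with the replicate block 2 were higher and 0 lower.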

How the data were processed

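RNA was measured on 6 Affymetrix Rat 230 2.0 arrays, 1 per preparation, with about 3 µg of total RNA each, per the labels. The authors deposited linear probe set intensities, already scaled, since the mean with 2% trimmed at each end was nearly equal on every array (1000.3 to 1000.4). Their software was not given in the sources used here, and detection calls were not used. Scaling fixes the average brightness, so each difference is relative to it. All 6 columns were matched to samples by accession. After 57 control probe sets were left out, 31042 were tested. Names came from the platform annotation of 2016 (20826 probe sets with 1 symbol, 436 with several, 9780 with none); 20758 single symbols were found by identifier in RefSeq's GRCr8 annotation, with 0 changed. Promoter windows are RefSeq's.

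Intensities were analysed as log2(value + 16), which understates differences of dim signals, in R 4.3.3 by the lmFit and eBayes functions of limma 3.58.1 (two-sided, no covariate, no filter), with Benjamini-Hochberg adjustment over every tested probe set. The code of the fit was run on simulated data with independent noise and changes in brighter probe sets only. That run does not cover dim members and is no check of the results. Differences are IMCD minus nonIMCD. The members, lists and tests were chosen with earlier results of these data known. All members are reported. Array values are given by role for up to 5 called genes with the largest difference and the brightest that did not pass; other values by array, and Il10rb, were chosen after they were seen. Of other pathway genes, up to 3 called ones per list and direction are named, with the interferon receptors, Il6, Il6st and Lif. Alternatives changed the pseudocount, the scaling, the dim filter, the block, the variance trend and the probe set rule, and left out each array. The number of arrays limits the precision.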

Additional observations from a re-analysis of the deposited data

How the results depend on the processing

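The pseudocount, scaling, filter, block, trend, probe set rule and each array were varied over 14 alternatives. Members higher in IMCD numbered 17 with arrays centred on their median and 15 with an intensity trend, against 8; without 1 array they numbered 4 to 7, and members lower 8 to 9. Over all genes, 2868 were higher and 1456 lower with arrays centred on their median; without 1 array 829 to 1151 were higher and 1451 to 1731 lower. Genes of the pathway lists higher in IMCD numbered 25, and 15 to 21 without 1 array. Fits without 1 array rest on 5; the cause of the other shifts was not tested. Of 1064 values of 76 genes, 941 kept direction and call, 69 lost a call, 30 gained one and 24 changed sign, all of them in genes that did not pass. With arrays centred on their median the sign changed for Ifi27 (0.076), Jak1 (0.14), Irf7 (0.15), Tyk2 (0.058), Socs6 (0.22) and Oas1b (0.21). After quantile normalization it changed for Mx2 (-0.077), Irf3 (-0.14), Socs6 (0.10) and Oas1b (0.21), with the mean of all probe sets for Jak1 (0.042), and with a pseudocount of 1 for Ifngr2 (-4.6e-05). Without 1 array, the difference was -0.16 to 0.35 for Mx2, -0.046 to 0.079 for Irf3, -0.038 to 0.21 for Stat5b, -0.011 to 0.26 for Stat6, -0.64 to 0.24 for Oas1b and -0.11 to 0.077 for Ifngr2. Deviations from the fraction means correlated at 0.04, 0.04 and 0.06 between same-numbered arrays, and at -0.036 to -0.00042 between the others. Each array correlated best with its own number. Values this small do not decide whether the replicate numbers mark the pairs. By the labels, replicate number 1 joins a 6-week IMCD array with a 10-week nonIMCD array. With the replicate block 9 members were higher and 8 lower, and 994 and 1595 genes, against 1427 and 2239. Dim values limit several results, among them those of Socs1, Socs2, Stat4, Irf5, Ifit1, Il10, Csf2, Il2rg, Tlr7, Fga and Reg3b.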
